A study of Bos indicus with 8 samples.

Results

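The transcripts of non-vitrified control blastocysts of Bos indicus were described from the control channel of 8 two-colour arrays, each of which also carried a vitrified pool whose channel was not used. All probes that the platform annotation pairs with a gene symbol were taken: 21790 of 43794 gene probes, for 15229 genes. Each control sample was a pool of 10 blastocysts produced in vitro from slaughterhouse oocytes and graded of top quality at 144 to 156 h. The controls stayed at 37 °C in HEPES-buffered TCM-199 with fetal bovine serum while other embryos were cooled and warmed, and were then cultured for 4 h in synthetic oviduct fluid, after which embryos of normal appearance were kept. Their RNA was amplified over repeated rounds before labelling. On both of the 2 slides the control pool was labelled with Cy3 on areas 1 and 3, and with Cy5 on areas 2 and 4.

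A blastocyst is an epithelial sphere around a fluid-filled cavity. Its outer layer, the trophectoderm, is a transporting epithelium held together by tight junctions and keratin filaments and will form the placenta. Its inner cell mass keeps the pluripotency regulators that later give the embryo proper, and sets aside the primitive endoderm, which lays down basement membrane. In cattle the trophectoderm keeps POU5F1 for longer than in the mouse, and it secretes interferon tau, the signal by which the mother recognises pregnancy. The arrays hold RNA of whole embryos, so fewer cells of a lineage and less RNA per cell cannot be told apart.

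Signal was the mean spot intensity minus the median local background, and the level of a gene is the mean over both dyes of its log2 signal after quantile scaling within each dye, taken from its brightest probe. A spot counted as above background when it exceeded the 95th percentile of the 153 negative control spots of its channel. These spots all carry the same control name, so the limit does not measure unspecific binding across probe sequences. Of them 106 passed it on no array and 0 on all arrays. Passing the limit, above all by a dim probe or on some arrays only, need not mean that a transcript was detected. Between 77.7% and 84.3% of gene probes passed this limit on an array. Ranks of probes were alike between arrays, with Spearman's rho across probes, which are not independent replicates, of 0.950 to 0.970 within a dye and 0.926 to 0.963 between dyes. A probe's brightness depends on the probe as well as on its transcript: among the 4024 genes with more than 1 probe the probes of a gene spanned a median of 1.57 log2 units. In 575 of them 1 probe was above background on all arrays and another on none. The order below is therefore one of signals, and not of molecules per embryo. Dimmest probes are given below for some genes only, so a gene without such a value need not have probes that agree.

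After correction for dye, arrays on neighbouring areas of a slide (1 and 2, or 3 and 4) deviated together, with a mean correlation of 0.80 across 29456 probes (0.73 to 0.85 over 4 pairs). Arrays that share a replicate number, on different slides and in the same dye, gave -0.10 (-0.18 to -0.018), above the -0.44 (-0.57 to -0.33) of the other arrays of the same dye. Deviations within a dye sum to 0, which by itself pulls such correlations below 0, so arrays of 1 replicate number were also more alike than others, though less than neighbours. Each neighbouring pair holds both dyes, so values are given for the 4 neighbouring pairs, in the order areas 1 and 2 and areas 3 and 4 of the first slide, then areas 1 and 2 and areas 3 and 4 of the second slide, and errors are SDs over these pairs. The labels do not say which arrays share a pool. Pool and place on the slide cannot be told apart, nor do the labels say that pools came from separate cultures, so p-values measure only the spread between these arrays.

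Most named genes gave a signal above the background limit. At least 1 probe was above background on all arrays for 11612 genes (76.2%), and none was on any array for 834 genes (5.48%). The median level was 7.45, against a mean background limit of 6.70. By distance from the limit, 3210 genes (21.1%) were bright, meaning on all arrays and at least 10 times the limit, 3707 were moderate at 2 to 10 times, and 4695 were dim at under 2 times. A further 2783 genes passed on some arrays only. More genes thus lay below 2 times the limit than above it, as the distribution of levels shows. With a limit at the 99th percentile of the negative controls the genes on no array numbered 1386.

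**Figure D1:**
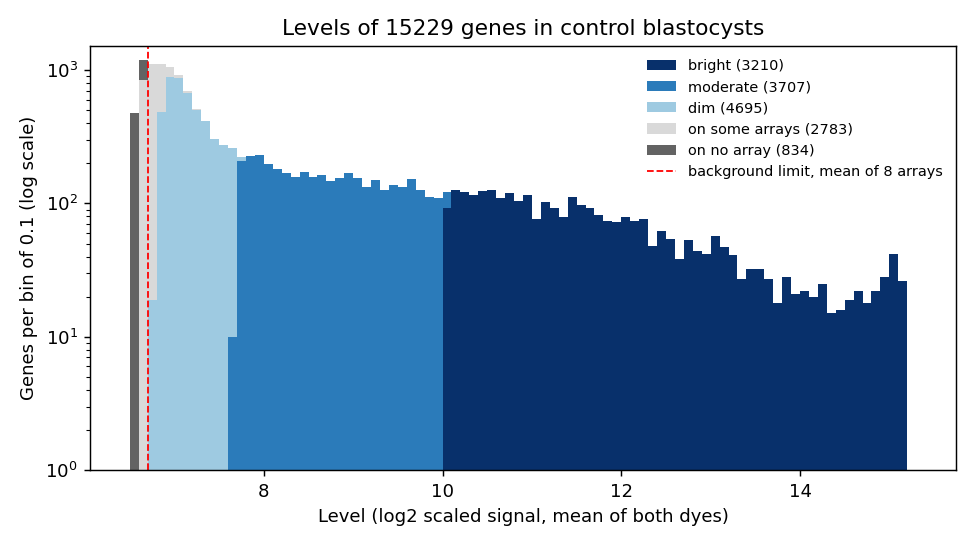
Distribution of the level of 15229 genes, as log2 scaled signal in bins of 0.1 on the horizontal axis and number of genes on a log axis, coloured by band. Dim genes pile up beside the background limit at 6.70 (red dashes), and a second, small peak of bright genes stands near 15.

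FN1, the matrix protein fibronectin, had the highest level at 15.18 ± 0.02 (SD, n = 4 pairs), with 15.17, 15.19, 15.20 and 15.16 in the 4 pairs. CSTB, an inhibitor of cysteine proteases, followed at 15.17 ± 0.02, and CKB, the creatine kinase that buffers ATP, was close behind. CTNNA1, the alpha-catenin that ties cadherins to actin, HSP90AA1 and HSPA8, both cytosolic chaperones, TUBA1A, an alpha-tubulin, and ACTG1, a nonmuscle actin, were among the top 30 as well. So were TMSB4X, which binds actin monomers, CYCS, the electron carrier cytochrome c, SLC2A3, a glucose transporter, ATP1B3, a sodium pump subunit, and PABPC1, which binds poly(A) tails. Ribosomal proteins made up 17 of the top 100 genes, among them RPS6, RPL12, RPLP0, RPSA, RPS3 and RPS29 in the top 30. LOC symbols, which carry no gene name, made up 8 of the top 30 and 28 of the top 100, against 905 of all 15229 genes.

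The top 30 levels lay between 15.09 and 15.18, a 1.07-fold span, and 235 genes lay within 1 log2 unit of the highest. The order inside this block has no weight: the SD over pairs within the top 30 had a median of 0.03 and reached 0.15. None of the top 30 passed the test between neighbouring pairs, and LOC613460 rests on 3 pairs because 1 of its spots was marked as ignored. These levels lie close to the highest of any probe, 15.19, and 38.3% of genes above level 14 passed, against 71.7% of bright genes. Whether signals are compressed at the top of the scale was not tested, so the small SDs do not show equal or steady abundance. Among 43794 probes, 14 had a spot at the scanner ceiling, all in Cy5 arrays.

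Gene classes of protein synthesis were bright almost throughout, against 21.1% of all named genes. Of 62 cytosolic ribosomal proteins 57 were bright, with a median level of 13.89 and RPS6, RPL12 and RPLP0 highest at 15.13, 15.12 and 15.11. Of 34 translation factors 32 were bright, led by PABPC1, EIF4G2 and the elongation factor EEF1A1. The 1 dim member of each list, RPS26 at 7.66 and EIF4H at 7.69, shows how far single probes of one machine can lie apart. Of 75 mitochondrial ribosomal proteins 41 were bright, with MRPL51 (13.97), MRPL53 (13.84) and MRPL39 (13.70) on top.

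The energy-producing genes formed another bright class, against 21.1% of all named genes. Of 66 nuclear genes of the respiratory chain and ATP synthase 56 were bright, with CYCS at 15.11, ATP5A1 at 15.07 and ATP5B at 15.04. Muscle isoforms of the same chain were low: COX7A1 passed on no array, COX6A2 on 4 of 8, and COX8B reached 8.23. Among 19 glycolysis enzymes 9 were bright, led by LDHB (14.95), PGAM1 (14.60) and TPI1 (14.13), while ALDOC, a brain aldolase, passed on 1 array. Of 9 sugar transporters SLC2A3 (15.11 ± 0.03), SLC2A1 (12.94 ± 0.08) and SLC2A6 were bright. The insulin-responsive SLC2A4 and the liver-type SLC2A2 lay at 6.76 and 6.89, and the intestinal SLC5A1 passed on 2 arrays. Mitochondrially encoded transcripts had no named probe.

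Quality control and nuclear RNA handling were bright as well, against 21.1% of all named genes. Of 35 proteasome subunits 24 were bright, led by PSMA6 (14.88), PSMD2 (14.43) and PSMA2, while PSMB8, the inducible immunoproteasome subunit, passed on 4 arrays. Of 29 heat shock and chaperonin genes 19 were bright, with HSP90AA1, HSPA8 and CCT8 on top. HSPA6 passed on 1 array and HSPB6 on none, and the stress-inducible HSPA1A was at 8.02. Among gene families grouped by symbol, 17 of 18 HNRNP genes, which package nuclear RNA, and 16 of 23 splicing factors were bright, against 25 of 258 zinc finger genes and 43 of 307 solute carriers.

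The cytoskeleton of nonmuscle cells had 27 bright genes of 37, led by ACTG1 (15.11), TMSB4X (15.09) and the crosslinker ACTN1 (15.00). ACTB, the other nonmuscle actin, gave 10.99 by its brightest probe, and VIL1, a bundler of gut microvilli, passed on no array. Tubulins had 6 bright of 14 and TUBB4 passed on no array. Among cathepsins and the plasminogen system 8 of 20 were bright, with CSTB, CTSL2 (15.03) and SERPINE2 (13.46) highest. None of 11 skin and stratified keratins was bright (KRT6A highest at 8.67), against 21.1% of all named genes. Nor was any of 5 uroplakins, the plaque proteins of urothelium (UPK3A highest at 8.97). Both lists are too short to differ clearly from that share.

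Among all named genes 21.1% were bright. Redox genes had 20 bright members of 37, with thioredoxin reductase TXNRD1 (15.06), PRDX6 (14.29) and the ferritin chain FTH1 (13.56) highest. NQO1 and GSTA1 passed on 2 and 3 arrays. Of 41 cell cycle genes 21 were bright, led by PCNA, the sliding clamp of replication, at 14.51, the mitotic cyclin CCNB1 at 14.33 and RRM2, which makes deoxynucleotides, at 14.06. CCND1, the G1 cyclin D1, passed on 3 arrays, and CCND2 was at 10.56. Histone genes had 7 bright members of 13, with the variant H2AFZ highest at 14.06. Of 12 DNA methylation and demethylation genes 3 (25.0%) were bright, near the share of all named genes. UHRF2, a relative of the factor that recruits DNMT1, stood at 13.54 and the glycosylase TDG at 10.67. The dimmest probes of TXNRD1 and TDG lay at 6.70 and 6.65. The de novo enzyme DNMT3A stood at 14.57 ± 0.26, the de novo enzyme DNMT3B at 9.91, the demethylase TET3 at 9.56 and the maintenance enzyme DNMT1 at 7.19. The dimmest of 3 DNMT3A probes lay at 8.01, so its distance from the other enzymes depends on the probe.

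**Figure D2:**
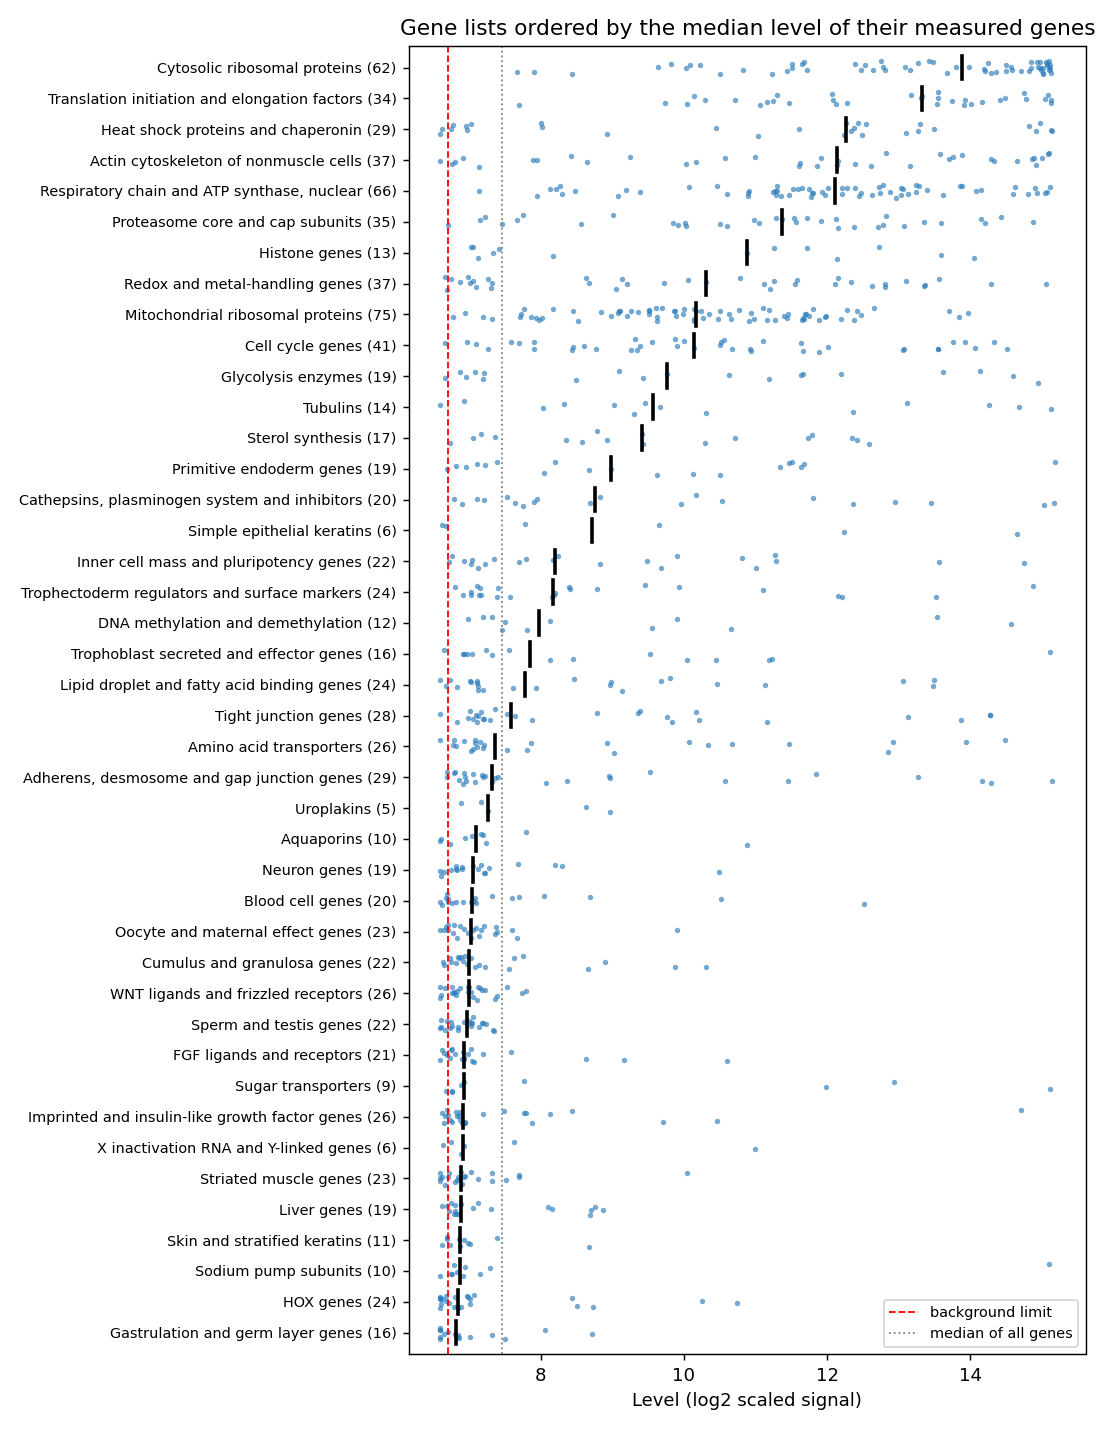
Level (log2 scaled signal) of every measured gene of 42 lists with at least 5 measured genes, 1 dot a gene and a black bar at the list's median, with the number of genes in brackets. Cytosolic ribosomal proteins, translation factors and the respiratory chain have medians above 12, and lists of other cell types and of later stages have medians near the background limit (red dashes, 6.70), below the median of all genes (grey dots, 7.45). Sodium pump subunits (6.87) and sugar transporters (6.92) have medians in the same low range.

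The marker genes of the label were measured for 5 of 6, since GATA6 has no probe with that symbol. KRT8, the type II keratin of simple epithelia, had 14.43, 14.40, 15.09 and 14.70 in the 4 pairs, a level of 14.65 ± 0.32. Its partner KRT18 had 12.68, 11.99, 12.46 and 11.83 (12.24 ± 0.40). POU5F1, a pluripotency regulator, had 11.09, 11.43, 11.22 and 11.38 (11.28 ± 0.15). NANOG, another, had 11.40, 11.07, 10.66 and 10.12 (10.81 ± 0.55). CDX2, the homeobox regulator of trophectoderm, had 7.01, 7.01, 7.03 and 7.07 (7.03 ± 0.03), 1.25 times the limit. KRT8, KRT18, POU5F1 and NANOG were thus bright in every pair and CDX2 was dim in every pair, although above background on all 8 arrays. Of the other simple keratins KRT19 reached 9.66 and KRT23 passed on no array. How far the 1 CDX2 probe follows its transcript was not tested.

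Other regulators of the 3 lineages were also split between bright and dim. In the trophectoderm list 5 of 24 genes (20.8%) were bright, against 21.1% of all named genes: TFAP2C, an AP-2 factor, at 14.87 ± 0.14, the endocytic adaptor DAB2 at 13.52 ± 0.11, GRHL1, an epithelial factor, at 12.21 ± 0.30, KLF5 and GATA2 (11.11 ± 0.39). GATA3 (7.39 ± 0.05), TEAD4, ELF5 and HAND1 were dim, and EOMES passed on 6 arrays. In the pluripotency list 6 of 22 (27.3%) were bright: KLF4 (14.75 ± 0.23), DPPA3 (13.57 ± 0.30), POU5F1, the nuclear receptor NR5A2, SPIC and NANOG. SOX2 stood at 7.04 ± 0.18, 1.25 times the limit, and TFCP2L1 passed on 2 arrays. In the primitive endoderm list 8 of 19 (42.1%) were bright, led by FN1, LAMC1, a laminin chain of basement membrane (11.68 ± 0.20), and PDGFRA, a receptor of the lineage (11.64 ± 0.22). GATA4 was at 11.34 ± 0.28, with a Cy5 minus Cy3 difference of -1.27, SOX17 was dim at 6.96 ± 0.05, and FOXA2 passed on 3 arrays. For TFAP2C, DAB2, GRHL1, DPPA3, LAMC1 and PDGFRA the dimmest probe of the gene lay at 7.97, 7.31, 7.15, 8.09, 7.515 and 6.83. These genes would thus read as dim or moderate by another probe.

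**Figure D3:**
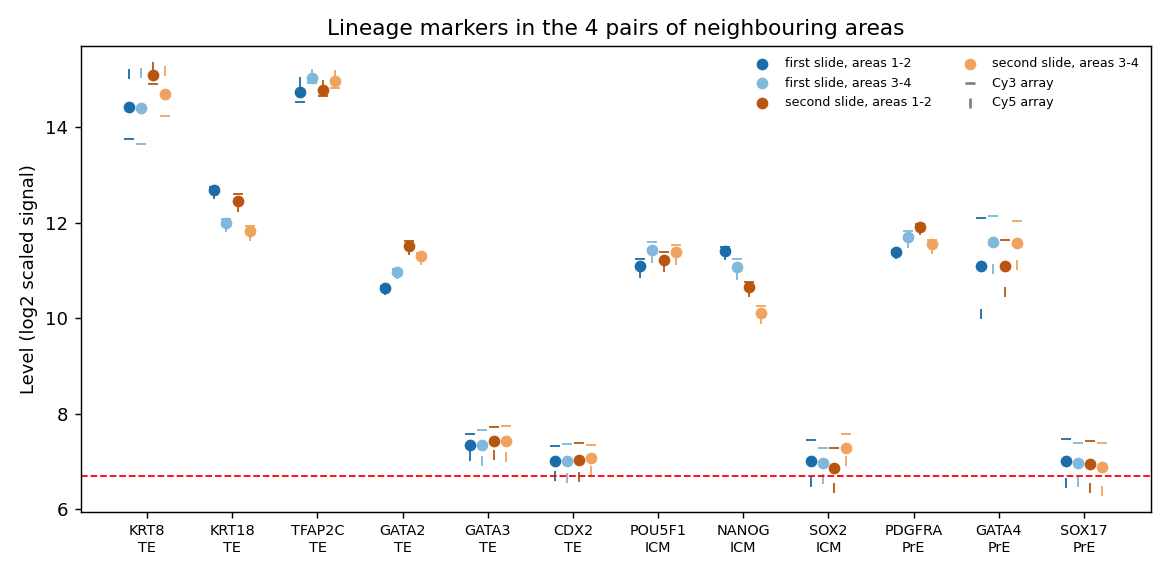
Level (log2 scaled signal) of 12 lineage markers of trophectoderm (TE), inner cell mass (ICM) and primitive endoderm (PrE) in the 4 neighbouring pairs (dots), with each pair's Cy3 and Cy5 arrays as a horizontal and a vertical tick. GATA3, CDX2, SOX2 and SOX17 lie close to the background limit (red dashes, 6.70, mean of both dyes) in every pair, and the other 8 lie far above it.

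In the list of trophoblast products and effectors 5 of 16 genes were bright, 3 moderate and 6 dim, and 2 passed on some arrays only, with a median level of 7.85. IFNT, interferon tau, had 11.45, 11.36, 11.32 and 10.80 in the pairs (11.23 ± 0.29). PTGS2, which makes prostaglandins, was at 11.19 ± 1.03, and TKDP1, a Kunitz-type protein of ruminant trophoblast, at 10.45 ± 0.46. Of the pregnancy-associated glycoproteins PAG2 reached 9.53 and PAG11 7.24, and the placental prolactin relative PRP1 passed on 2 arrays. Junction lists had 7 bright genes of 28 (25.0%, tight junctions) and 7 of 29 (24.1%, other junctions), near the 21.1% of all named genes. Highest were TJP1, the scaffold ZO-1 (14.28), CLDN6 (14.28 ± 0.24) and F11R, an adhesion molecule of tight junctions (13.88), and for the other junctions CTNNA1, the desmosomal cadherin DSG2 (14.29) and the epithelial adhesion molecule EPCAM (14.16). CLDN18 passed on no array and PKP1, GJA3 and DSG4 on 3, 2 and 4. CDH1, the cadherin of compaction, was dim at 7.41 ± 0.28 by its 1 probe. The dimmest probes of DSG2, EPCAM, F11R and PTGS2 lay at 7.19, 6.98, 8.31 and 6.73, so these genes too depend on the probe.

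The sodium pump genes and the aquaporins had 1 bright member each. ATP1B3 was at 15.10 ± 0.15 while each of the other 9 measured sodium pump genes lay at 7.30 or below, and FXYD6 passed on no array. AQP3, a water and glycerol channel, was at 10.88 ± 0.53, AQP11 at 7.79, and AQP1 and AQP6 passed on no array. The large neutral amino acid transporter SLC7A5 (14.49), SLC38A2 (13.94 ± 0.09, n = 3 pairs) and SLC1A4 (12.92 ± 0.21) led 8 bright genes of 26. That is 30.8%, against 21.1% of all named genes, and SLC38A1 passed on no array. Lipid genes were led by the droplet coat PLIN2 (13.50 ± 0.37), the desaturase SCD (13.48) and the elongase ELOVL6 (13.06), and sterol synthesis by HMGCS1 (12.59), SC4MOL (12.42) and CYP51A1 (12.36). FABP6 passed on no array. The dimmest probes of ATP1B3, AQP3, SLC38A2 and SLC1A4 lay at 6.70, 7.91, 6.81 and 6.87. Those of ELOVL6, HMGCS1, SC4MOL and CYP51A1 lay at 7.35, 6.76, 7.43 and 7.82.

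Classes of later development and of other cells were low, where 21.1% of all named genes were bright and 76.2% were on all arrays. Of 24 HOX genes, which pattern the body axis, 12 were above background on all arrays and 6 on none (HOXC5, HOXC6, HOXC11, HOXB7, HOXD4 and HOXD12), with a median level of 6.84. HOXB4 (10.75 ± 0.21) and HOXB2 (10.25 ± 0.15) were the 2 bright members. Of 16 gastrulation and germ layer genes 5 were on all arrays, and T (brachyury), MIXL1, FOXA1, NEUROG1 and NEUROG2 passed on no array, against 5.48% of all genes. The highest members of that list were PAX3 (8.71), FOXC2 (8.06) and GSC (7.51). None of 26 WNT ligands and frizzled receptors was bright, with WNT6, FZD4 and WNT9B highest at 7.80, 7.74 and 7.53 and WNT1, WNT5A and WNT10A on no array. Of 21 FGF genes 1 was bright, FGF12 at 10.61 ± 0.07. FGFR2 was at 9.16, FGFR4 at 8.64 and FGF4 at 6.92, and FGF7 and FGF23 passed on no array. The dimmest probes of FGF12 and FGFR2 lay at 6.66 and 6.60. Of 26 imprinted and insulin-like growth factor genes GNAS (14.71) and INSR (10.46) were bright, SNRPN was at 9.71 ± 0.23, DLK1, PEG10, PHLDA2 and IGFBP5 passed on 1 or 2 arrays, and IGFBP1 passed on none.

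Markers of the cells that surround or precede the embryo were mostly near the limit. None of 23 oocyte genes and none of 22 sperm genes was bright, against 21.1% of all named genes. DDX4, a germ cell helicase, stood at 9.91 ± 0.24, while the oocyte growth factor GDF9 passed on 2 arrays and ZAR1 on none. The highest sperm list member was ZPBP at 7.35, and ODF1, ODF3 and TSSK1B passed on no array. Of 22 cumulus and granulosa genes COL1A2 (10.32 ± 0.40) was bright, STAR and LUM followed at 9.88 and 8.89, and AMH and DCN passed on 1 array. The blood list held HBG at 12.51 ± 0.87 and HBB at 10.51 ± 0.94, both haemoglobin chains, while HBM and CD79A passed on no array. In the neuron, muscle and liver lists the highest members were SNAP25 (10.48 ± 0.20), TTN (10.05 ± 0.36) and F2 (8.87). ALB, the main plasma protein, passed on 4 arrays, and SYT1, ACTA1, TNNT1, TNNT3 and MYF5 passed on none. The part of such cells in the signal of these single genes was not tested. Among families, 0 of 84 potassium channel genes, 0 of 11 taste receptors and 6 of 77 interleukin genes were bright, against 21.1% of all named genes. The taste receptors are too few to differ clearly from that share.

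XIST, the RNA of X inactivation, was bright with 11.08, 11.48, 10.52 and 10.89 in the pairs (10.99 ± 0.40). The Y-linked DDX3Y was dim at 7.62 ± 0.16, SRY stood at 6.93 ± 0.05, and TSPY passed on 1 array. RPS4Y1 was at 15.14 ± 0.01, but its X-linked copy is closely similar and the annotation does not tell which of them the probe reads. Across chromosomes the share of genes on all arrays ran from 71.3% on chromosome 4 to 81.1% on chromosome 27, and was 77.7% on the X.

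The spread between the 4 neighbouring pairs was set against the spread within them with limma, with dye as a covariate. The pairs were used because their arrays were already known to deviate together, so the number of probes that passed restates that likeness probe by probe and does not measure differences between pools. Of 36114 probes above background on at least 4 arrays, 14290 (39.6%) passed a Benjamini-Hochberg adjusted p of 0.05, as did 8579 of the 18566 tested probes with a gene symbol (46.2%) and by the brightest probe 6523 of 13442 genes (48.5%). Most differences were small: the median distance between the highest and lowest pair was 0.28 log2 units, and 420 genes exceeded 1 log2 unit. Shares were 71.7% of bright, 75.8% of moderate and 24.5% of dim genes, and 38.3% of genes above level 14. With the signal taken above the median of the negative controls, a setting chosen after the data were seen, 7425 probes passed, and 778 passed when arrays were grouped by the replicate numbers of the labels.

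The 12 genes with the smallest p spanned 3.42-fold to 6.55-fold between pairs, with limma adjusted p from 6.9e-07 to 1.3e-06. PLS1, the actin-bundling fimbrin of microvilli, had 11.77, 11.69, 12.85 and 10.14. PTGS2 had 11.47, 11.15, 12.31 and 9.83, and its other 2 probes also passed. HNF4A, a nuclear receptor of endoderm and gut, had 11.04, 10.24, 11.27 and 9.49. These 3 genes were highest on areas 1 and 2 and lowest on areas 3 and 4 of the second slide.

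CYP3A5, a drug-metabolising cytochrome P450, had 9.27, 8.01, 9.01 and 7.16. CCL17, a chemokine, had 10.36, 9.40, 10.56 and 8.01, and MIR2478 had 9.91, 8.83, 9.26 and 7.68. In these 3, and in PLS1, PTGS2 and HNF4A, both pairs on areas 1 and 2 lay above both pairs on areas 3 and 4. HBG ran the other way, with 12.04, 13.08, 11.53 and 13.39. HBB, whose probe may read related globins as well, moved with it, at 10.01, 11.09, 9.47 and 11.49 (limma adjusted p of 3.2e-06).

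CD8B, a T cell co-receptor chain, had 7.81, 9.98, 9.33 and 7.61, but its other probe did not pass. LOC781841 (9.91, 10.09, 7.75 and 8.44) and MGC148328 (10.22, 9.50, 7.77 and 8.37) were higher in both pairs of the first slide, as was LOC531650 (8.33, 9.18, 7.27 and 6.69). LOC786530 had 10.01, 10.97, 8.99 and 8.65, again with the first slide above the second. Of the 12 genes 9 were lowest on areas 3 and 4 of the second slide, and in 6 both pairs on areas 1 and 2 exceeded both on areas 3 and 4. Under the grouping by replicate numbers 9 of the 12 no longer passed, with adjusted p up to 0.997.

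**Figure D4:**
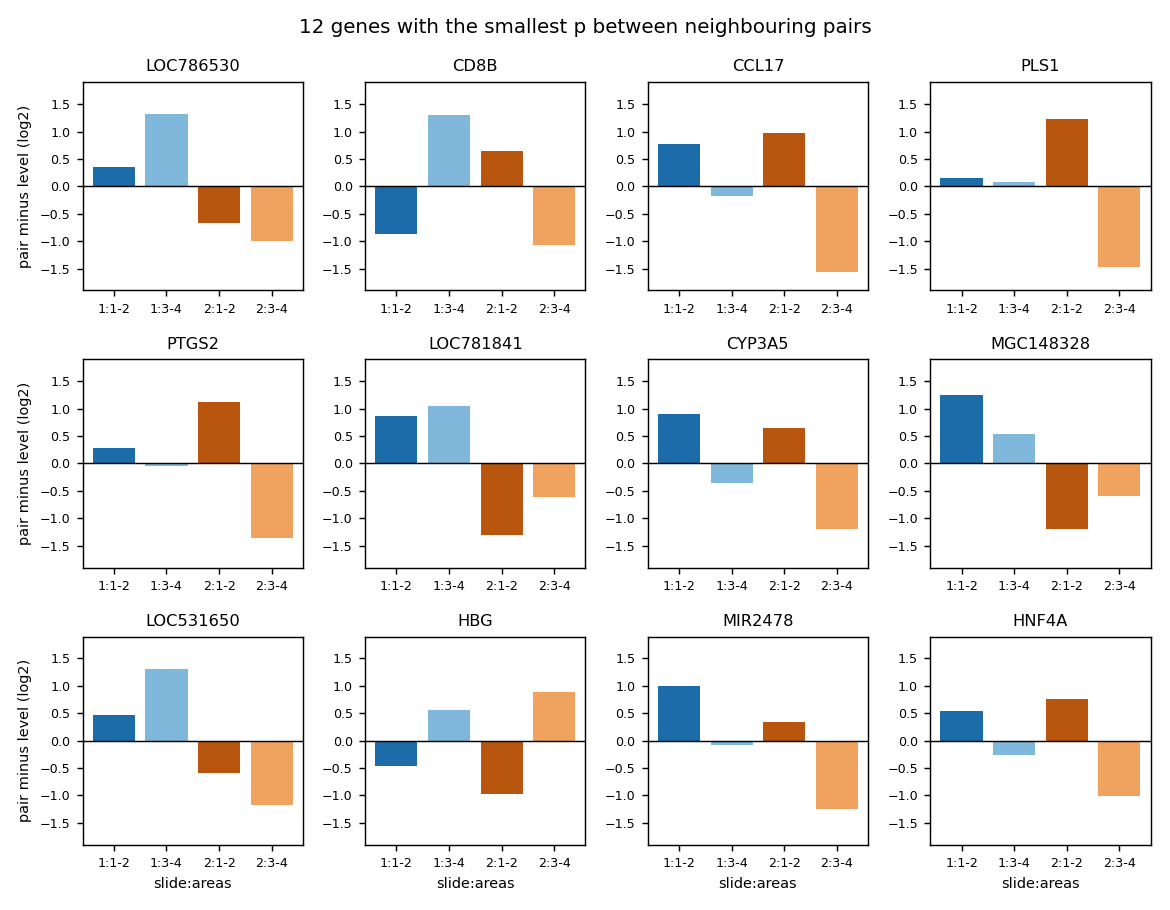
Distance of each neighbouring pair from the gene's level (log2 units, vertical axis) for the 12 genes with the smallest p, with slide and areas on the horizontal axis (1:1-2 is the first slide, areas 1 and 2). PLS1, PTGS2, HNF4A, CCL17, CYP3A5, MIR2478, CD8B, LOC786530 and LOC531650 are lowest on areas 3 and 4 of the second slide, and HBG is highest there.

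Among the 419 genes that passed with a distance over 1 log2 unit and a value in every pair, 239 (57.0%) were lowest on areas 3 and 4 of the second slide. In 142 (33.9%) that pair was lowest while areas 1 and 2 of the first slide were highest, and in 20 (4.77%) it was the reverse. In 184 (43.9%) both pairs on areas 1 and 2 exceeded both pairs on areas 3 and 4. Among all 6496 genes that passed with a value in every pair, 1846 (28.4%) were lowest and 1903 (29.3%) highest on areas 3 and 4 of the second slide.

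Lists differed in how many members passed, against 48.5% of all genes. In the pluripotency list 18 of 21 tested genes passed, with no common order of pairs: NANOG was highest on areas 1 and 2 of the first slide (2.43-fold over its lowest pair, limma adjusted p of 9.0e-06), KLF4 was lowest on areas 1 and 2 of the second slide (1.44-fold span, 0.0025), and POU5F1 spanned 1.26-fold (0.0070). In the trophectoderm list 14 of 24 passed, among them GATA2 (10.64, 10.98, 11.52 and 11.30, adjusted p of 4.3e-05), and KRT18 passed (3.8e-05) while KRT8 did not (0.076). KRT8 ran from 13.66 to 14.91 over the Cy3 arrays, but only from 15.11 to 15.26 over the Cy5 arrays. Its result therefore does not show equal levels in the pairs, and whether its Cy5 signal is compressed was not tested. CDX2, a dim gene, did not pass (0.88), and whether closeness to the limit hid a difference was not tested. In the cytosolic ribosomal list 25 of 62 passed, with a median span of 0.27 log2 units. IFNT passed with a 1.57-fold span (3.5e-04) and XIST with a 1.96-fold span (6.4e-05). The share also differed between bands of brightness, and whether brightness accounts for the differences between lists was not tested.

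Of the 36114 tested probes 34014 (94.2%) differed between Cy5 and Cy3 by limma with the neighbouring pair as a covariate. Each dye was scaled by itself, and the mean background limit, taken before scaling, was 6.33 in Cy5 and 7.07 in Cy3. When all 8 arrays were scaled together 10187 probes differed between dyes, fewer than the 14477 that then differed between pairs. The 6 genes with the largest Cy5 excess were all bright: KRT8 by 1.03, TPM4 by 0.81, FAS by 0.71, RBMX by 0.69, MYL12A by 0.59 and RPS16 by 0.57 log2 units. The 6 with the largest Cy3 excess had a Cy5 minus Cy3 difference of -2.36 for a moderate probe of HSPD1 (level 8.91), -2.16 for NAA35, -2.12 for TLX2, -1.94 for PPP2R1A, -1.81 for WBP1 and -1.80 for ACAA2. The brightest HSPD1 probe stood at 14.92 ± 0.12 with a difference of 0.30, so probes of 1 gene disagreed in sign.

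The list of top genes held across dyes and slides, but depended on how the probes of a gene were combined. Of the top 100, 93 were also among the top 100 in Cy3 arrays alone, 94 in Cy5 arrays alone, 92 on the first slide and 96 on the second. Taking the median over the probes of a gene in place of the brightest kept 65. Genes with several probes, such as ATP1B3 with a dimmest probe at 6.70, are the ones that depend on that choice.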

How the data were processed

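The authors deposited, per the file headers, the raw mean and median intensity of each spot and its median local background for both channels of each array, neither corrected nor normalized. Of the scanning software the sources used here say nothing. The deposited table of log ratios was not used, as a ratio holds no control level. Per the labels' protocols RNA was amplified over T7 rounds, which can distort levels, and labelled with ULS dyes.

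Spots marked as ignored (2 to 53 an array), 8 unnamed spots and 14 summary lines were left out. Signal was mean intensity minus background, quantile-scaled within dye, with a floor at the median of the negative controls, on the log2 scale. That pedestal was not subtracted: the limit was 1.06 to 1.12 times it, so differences of dim genes are understated. Tests used limma 3.58.1 under R 4.3.3 (lmFit, eBayes) on probes above background on at least 4 arrays, with Benjamini-Hochberg adjustment over all. In data simulated for the comparison between pairs on 35997 probes, 78% of 100 shifts of 1 log2 unit and 99% of 100 shifts of 2 were recovered. Noise there was independent, with SDs shuffled between probes, and only these shifts, all in 1 pair, were present. In the data 39.6% of probes passed, so these shares do not give the power of the test in the data. Of 15229 symbols 12516 (82.2%) were found in the RefSeq table of NIAB-ARS_B.indTharparkar_mat_pri_1.0, used for chromosomes. The annotation can be old, and no probe had several symbols.

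Members, gene lists and tests were chosen with earlier results of these data known, and the bands after the data were seen. Named genes are the 30 highest, the marker genes, in each list mostly the 3 highest and those on no array, with examples of those on at most 4, the 12 smallest p between pairs and the 6 largest dye differences a side. Other names were chosen after their values were seen.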

Additional observations from a re-analysis of the deposited data

Results flagged for a closer look

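Of 147 named genes above background on all 8 arrays, 10 had 1 neighbouring pair far from the other 3, by Dixon's criterion for 4 values. Chance alone marks about 1 in 20. Lowest on areas 1 and 2 of the first slide were HOXB4 at 10.44 (10.83 to 10.88 in the other pairs), LAMC1 at 11.39 (11.75 to 11.81) and ATP1B3 at 14.87 (15.15 to 15.20). LOC781580 was highest there at 15.19 (15.14 to 15.15). Lowest on areas 1 and 2 of the second slide were PLIN2 at 12.95 (13.63 to 13.71), TTN at 9.51 (10.19 to 10.28) and LOC789997 at 15.09 (15.14 to 15.15). On areas 3 and 4 of the second slide CLDN6 was lowest at 13.93 (14.35 to 14.42), and SLC1A4 was highest at 13.24 (12.79 to 12.83), as was SNRPN at 10.04 (9.55 to 9.62). LOC781580, LOC789997 and ATP1B3 did not pass the limma test between pairs, and the other 7 did.

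Of 10 array measures tested within dyes, 2 stood apart. The median of the negative controls was 88.3 intensity units on area 2 of the first slide, against 67.0 to 69.8 on the other Cy5 arrays. The median local background was 17.0 on area 1 of the second slide and 18.0 on the other Cy3 arrays.

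Probes without a gene symbol also gave signal: 13771 of 22004 (62.6%) were above background on all 8 arrays, as were 71.5% of the 21790 probes with a symbol, and 77 were brighter than the hundredth brightest named probe.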

How the results depend on the processing

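No paired analysis was possible because there is 1 group, and the replicate numbers are bound to the dye. Genes above background on all arrays numbered 9452 to 11978 over the alternatives that kept every gene, from 11692 to 11978 without 1 replicate number, and 7846 of 11205 for genes with 1 probe. Genes on no array numbered 561 to 1102 and 889 to 1027 without 1 replicate number, but 1386 at the 99th percentile of the negative controls. Probes that differed between neighbouring pairs numbered 9596 to 14497 over the alternatives of correction, scaling, filter and slide, 10676 to 15125 without 1 replicate number and 10707 to 13303 without 1 pair. They numbered 7425 with signal above the median of the negative controls, added after the data were seen, the cause of which was not tested, and 778 between replicate numbers, which has fewer degrees of freedom and spans the pairs. Probes that differed between dyes numbered 10187 with all 8 arrays scaled together, which removes the gap between dye scales, and 27245 to 41240 otherwise. The top 100 kept 92 to 100 genes and, with the median over probes, 65. Signal over background limits the dim genes, and 6 genes had a spot at the scanner ceiling.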

Other observations

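Several of the genes with the widest span between pairs were not in any list and were chosen after their values were seen. CYP3A28, a cytochrome P450, had 9.99, 7.82, 9.82 and 6.89 in the 4 pairs, an 8.62-fold span (limma adjusted p of 1.3e-06), and CYP3A5 followed the same order of pairs, although probes of such close relatives may read each other's transcripts. VIM, the intermediate filament of mesenchymal cells, had 9.32, 11.09, 8.44 and 9.37, a 6.26-fold span (2.9e-06). TXNIP, which binds thioredoxin and responds to glucose, had 9.11, 10.36, 8.22 and 8.85, a 4.39-fold span (3.7e-06). TAF15, GZMB, GRIA4, KCNE1L and DMBT1 were all highest on areas 1 and 2 of the first slide and lowest on areas 3 and 4 of the second.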
